A study of Mus musculus with 199 samples.

Results

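The crystal violet test asked whether DNA could still be recovered from thin slices of nuclei after the cells had been stained for microdissection. It made up 22 of the 199 libraries in the deposited table and was chosen by the experiment name in the library titles. The table holds libraries that failed the authors' quality control, and libraries that passed are not analysed here, so every comparison is conditional on failure. There were 16 libraries titled crystal violet stained, 5 titled unstained and 1 water control, which had no nuclear material and is used as background. All cells were 46C mouse embryonic stem cells of the 129/Ola strain, kept in serum with LIF and moved to a serum-free medium a day before harvest. Each profile library came from a cap with 4 nuclear profiles (4NP) cut from sections 220 nm thick, and a profile is the slice of a nucleus that lies in the section. Stained sections were bathed for 10 min in the dye at 1% (w/v) in water and washed in water. Every cap went through the Sigma WGA4 amplification kit with a night in the freezer after lysis, 25 PCR cycles and Nextera library preparation. The experiment's title says cresyl violet, whereas the library titles and their protocol say crystal violet, and the study's methods describe both dyes at this strength and time. The library titles are followed here.

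Genome architecture mapping (GAM) reads the folding of chromosomes from which stretches of DNA lie in the same thin slice. A slice catches a chromosome wherever its path crosses the section, so its DNA is found as unbroken stretches, on some chromosomes and not on others. Crystal violet and cresyl violet are basic dyes that bind nucleic acids and make cells visible under the microscope. The 46C line derives from a male line, so a nucleus holds a single X chromosome and a pair of each autosome.

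The values are calls: each 40 kb window of the genome was either called present or not called in a library. Of all rows of the table, 65983 windows on chromosomes 1 to 19 and X were used. Genome coverage below is the percent of these windows that were called. Calls carry no read depth, and fewer nuclei in a cap, less DNA per nucleus and fewer reads cannot be told apart. The number that ends each library's code was read as the column of its well, which the codes do not spell out. On this reading wells followed the groups: unstained libraries had columns 1 and 2, the water control column 2 and stained libraries columns 3 and 4. Stain and well column therefore cannot be told apart. The labels do not say whether caps came from separate cultures, so p-values measure only the spread between these libraries. Replicate numbers only name libraries.

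Stained libraries had a scatter of single windows, and unstained libraries held long stretches. The unstained libraries had 4271, 9034, 8678, 1076 and 2726 called windows, a coverage of 6.47%, 13.7%, 13.2%, 1.63% and 4.13%. Stained libraries had 160 to 645 called windows. Their coverage ran from 0.242% (Wilson 95% interval 0.208% to 0.283%) through a median of 0.553% to 0.978% (0.905% to 1.06%). The water control had 198 calls, or 0.300% (0.261% to 0.345%). The groups did not overlap: the fullest stained library lay below the emptiest unstained library, and 15 of the 16 stained libraries lay above this water control. Of the other 10 water controls of the series, 8 had 35 to 314 calls, and 5 stained libraries had fewer calls than the fullest of these. The other 2 had 13860 and 14094. Mean coverage was 0.559% ± 0.190 (SD, n = 16) with stain and 7.82% ± 5.40 (SD, n = 5) without. The difference of -7.26 percentage points had an adjusted p of 0.000246 in a two-sided exact permutation test over all assignments of the libraries, where the unadjusted p was 4.91e-05, the smallest this design can give. All adjusted p-values here are Benjamini-Hochberg values over 15 such tests.

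Coverage also differed between the well columns of the stained libraries. In well column 3 the 8 stained libraries ranged from 0.242% to 0.561%, and in well column 4 the other 8 ranged from 0.546% to 0.978%. Means were 0.423% ± 0.110 (SD, n = 8) and 0.695% ± 0.152 (SD, n = 8), and in 1 of the 64 pairs was the column 3 library the higher (exact permutation test, adjusted p = 0.000932). The columns thus overlapped only at a single pair of values. Between the neighbouring columns 2 and 3, the 3 unstained and 8 stained libraries had means of 6.30% and 0.423% (exact permutation test, adjusted p = 0.0152).

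**Figure D1:**
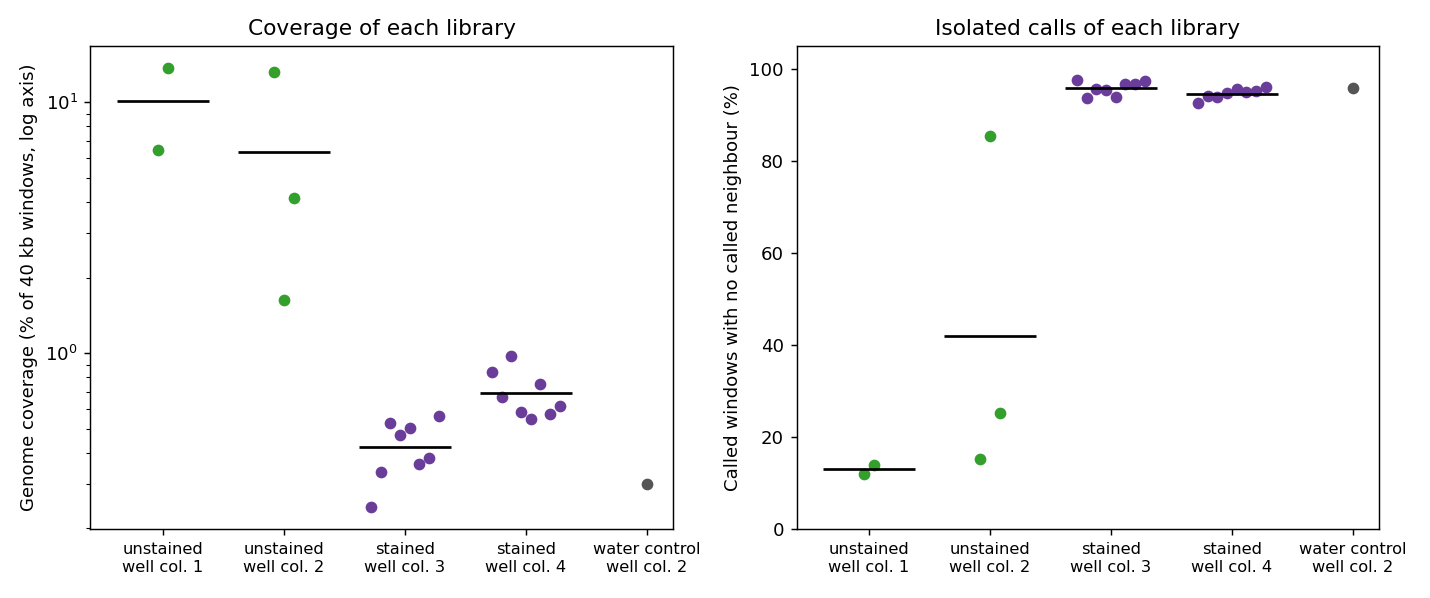
Left, genome coverage of each library (percent of 40 kb windows called, log axis), and right, the percent of called windows with no called neighbour, by group and well column. Points are libraries and bars are means; every stained library sits below 1% coverage and above 92% isolated calls, while the unstained libraries spread from 1.63% to 13.7% coverage.

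The length of unbroken stretches separated the groups along the chromosomes. A stretch is a run of called windows with no gap. The longest stretch of the unstained libraries measured 1960, 1840, 2320, 320 and 840 kb, and that of every stained library 80 or 120 kb. In the water control it was 80 kb. In windows, the means were 2.25 ± 0.447 (SD, n = 16) and 36.4 ± 20.98 (SD, n = 5), with no overlap (exact permutation test, adjusted p = 0.000246). Stretches of 5 or more windows numbered 258, 548, 553, 1 and 152 in the unstained libraries and 0 in each stained library. They held 71.01%, 52.4%, 51.9%, 0.743% and 40.3% of the calls of the unstained libraries. Unstained replicate 4 thus stood apart from the other unstained libraries in having nearly all of its calls outside long stretches.

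**Figure D2:**
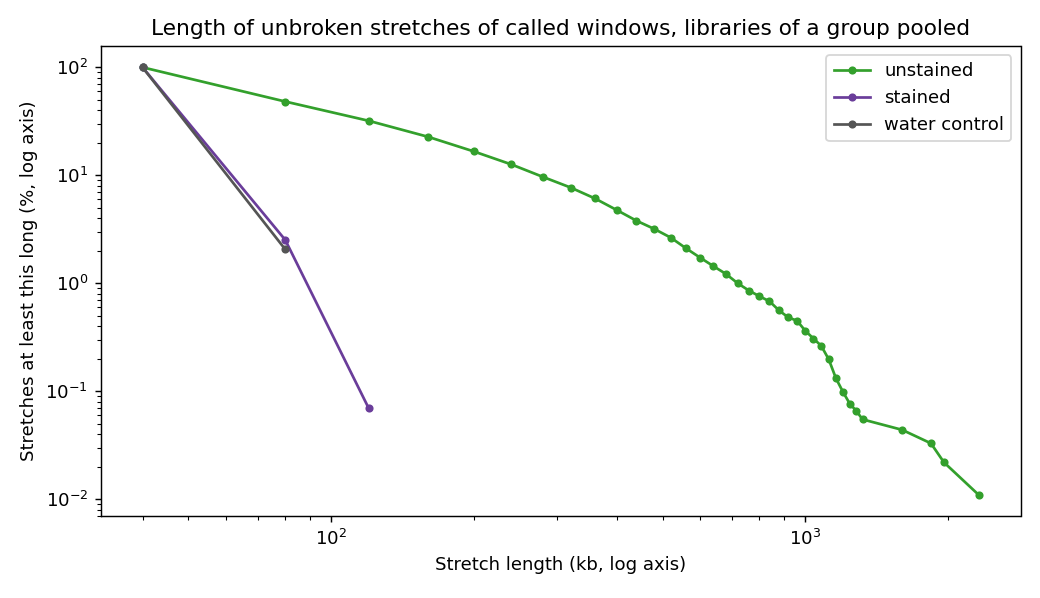
Percent of all stretches of a group (log axis) that were at least as long as the length on the horizontal axis (kb, log axis), with the libraries of a group pooled. The stained curve ends at 120 kb and the water control at 80 kb, and the unstained curve runs to 2320 kb.

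The long unstained stretches covered whole gene neighbourhoods. In replicate 3 the longest ran over chr5:22840001-25160000 (mm9, as are all coordinates here) and 38 protein-coding genes, among them Cdk5, a neuronal kinase, Kcnh2, a cardiac potassium channel, and Mll3, a histone methyltransferase. In replicate 2 it lay nearby, at chr5:28040001-29880000, and held 15 such genes including the patterning genes Shh, En2 and Mnx1. Replicate 1 had its longest stretch at chr14:86080001-88040000, a gene-poor region with Diap3, a formin that builds actin filaments, and Tdrd3. The longest of replicate 4, at chr19:6200001-6520000, took in 12 genes, among them Men1, a tumour suppressor, and Sf1, a splicing factor. Replicate 5 had equal longest stretches of 21 windows at chr2:72000001-72840000, with Sp3 and Cdca7, and at chr12:37400001-38240000, with the homeobox gene Meox2. Stained libraries had calls in 4 of these 6 stretches and none in those of chromosomes 19 and 12. Their stained coverage was 1.51% over the replicate 3 stretch, 0.272% over that of replicate 2, 1.28% over that of replicate 1 and 1.19% over the chromosome 2 stretch of replicate 5, beside 0.559% over all windows. The first of these was 0.987% without the Mll3 window chr5:24840001-24880000, which held 5 of its 14 stained calls. Over all unstained stretches of 5 or more windows, which took up 18.7% of the genome, lay 21.1% of the stained calls.

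Stained libraries had 4 stretches of 3 windows over all 16 libraries. They lay at chr4:8720001-8840000 in Chd7, a chromatin remodeller (replicate 3), at chr3:159240001-159360000 in Rpe65, an enzyme of the visual cycle (replicate 9), at chr2:132920001-133040000 with no protein-coding gene (replicate 11) and at chr2:44840001-44960000 in Zeb2, a transcriptional repressor of E-cadherin (replicate 14). Counting the library that defined each stretch, stained libraries with a call in these windows numbered 4 for Chd7, 1 for Rpe65, 2 for chr2:132920001-133040000 and 8 for Zeb2. Of the unstained libraries, 2 had a call in the Zeb2 windows and 0 in the other three.

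Because fuller libraries have more neighbouring calls by arithmetic alone, clustering was also given as a pair ratio. This is the number of called pairs at a set distance over the number that the library's coverage would give if calls were scattered, and it does not move with coverage when calls are lost evenly. At 40 kb, between directly neighbouring windows, the ratio was 11.7, 4.93, 5.04, 4.91 and 13.6 in the unstained libraries and ranged from 2.42 through a median of 4.41 to 9.503 in the stained libraries. The groups overlapped, with means of 8.04 ± 4.27 (SD, n = 5) and 4.54 ± 1.57 (SD, n = 16, exact permutation test, adjusted p = 0.0161). This call did not hold in all settings. Where the expected number of pairs was taken from each chromosome's own coverage, the means were 3.83 unstained and 4.22 stained, in the opposite order (adjusted p = 0.641, exact permutation test). Without unstained replicate 1 the difference was -2.59 and without replicate 5 it was -2.10, and neither passed. Stained calls thus still lay beside each other several times as often as their number would give, though on few pairs: 2 to 21 neighbouring pairs a library against 86 to 6100 in the unstained libraries.

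At 400 kb the ratio was 8.54, 3.48, 3.27, 2.52 and 9.497 in the unstained libraries and 0 to 3.20 in the stained libraries, with means of 5.46 ± 3.28 (SD, n = 5) and 1.58 ± 1.00 (SD, n = 16, exact permutation test, adjusted p = 0.000737). Only 3 of the 80 pairs of a stained and an unstained library had the stained library higher. At 4 Mb the unstained values were 2.79, 1.95, 2.02, 1.59 and 3.93, and the stained mean was 1.01 ± 0.691 (SD, n = 16), the level of scattered calls (exact permutation test, adjusted p = 0.00286). With each chromosome's own coverage the 400 kb difference shrank to -1.09 and still passed (exact permutation test, adjusted p = 0.0296). The 4 Mb difference shrank to -0.309 and did not pass (exact permutation test, adjusted p = 0.379). At 400 kb the stained libraries rested on 0 to 16 pairs each.

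**Figure D3:**
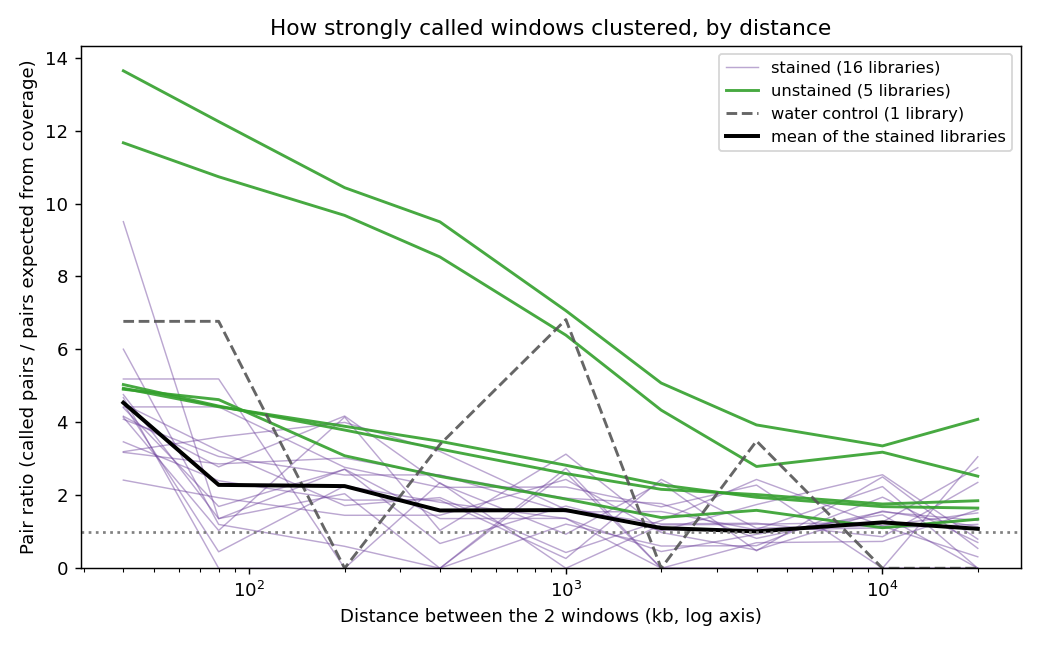
Pair ratio (called pairs over pairs expected from coverage, where 1 is scattered calls) against the distance between both windows (kb, log axis), 1 line per library, with the mean of the stained libraries in black. The stained mean falls from 4.54 at 40 kb to 1.01 at 4 Mb, while the 5 unstained lines lie between 1.39 and 13.6 up to that distance; the water control rests on few pairs and jumps between distances.

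The isolated share is the percent of calls without a called neighbour, and it rises as calls become fewer. It was 11.99%, 14.1%, 15.2%, 85.4% and 25.2% in the unstained libraries, 92.6% to 97.5% in the stained libraries and 96.0% in the water control. The difference of 64.9 percentage points had an adjusted p of 0.000246 (exact permutation test). When every library was thinned by calculation to the 160 calls of the emptiest one, the means became 97.8% stained and 96.2% unstained. The remaining 1.65 points kept their direction (exact permutation test, adjusted p = 0.0162), and the groups then overlapped. At 160 calls nearly every call is isolated in any library, so the size of the difference at equal numbers of calls is not comparable with that of the full libraries.

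Coverage of single chromosomes was the more uneven in 4 of the 5 unstained libraries. In unstained replicate 5, chromosome 16 had 23.8% of its windows called, 5.77 times the library's coverage, and chromosome 19 had 0.261%. In replicate 3 the extremes were chromosome 5 at 39.8% and chromosome 17 at 0.420%, and in replicate 1 they were chromosome 14 at 26.4% and chromosome 15 at 0.232%. Replicate 2 ran from 33.4% on chromosome 9 down to 1.15% on chromosome 14. Replicate 4 was flatter, from 3.46% on chromosome 19 to 0.848% on chromosome 4. Over the autosomes, the coefficient of variation of coverage was 0.420 to 1.49 in the unstained libraries and 0.293 to 0.667 in the stained libraries. Every library of both groups had calls on every chromosome. In the stained libraries the fullest autosome had 2.54 to 7.02 times the coverage of the emptiest, against 4.07 to 114 times in the unstained libraries, and in 15 of the 16 it stood at 1.58 to 2.23 times the library's coverage.

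The same-chromosome pair ratio sums this up as the number of called pairs on the same chromosome over the number expected from coverage. The unstained libraries had 2.27, 1.53, 1.501, 1.03 and 3.30, and the stained libraries 0.999 to 1.27, with means of 1.93 ± 0.885 (SD, n = 5) and 1.08 ± 0.0777 (SD, n = 16, exact permutation test, adjusted p = 0.00158). Unstained replicate 4 lay inside the stained range. For the neighbouring well columns 2 and 3 alone the difference was -0.873 and did not pass (exact permutation test, adjusted p = 0.0606).

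The highest coverage of a chromosome relative to its library, among the stained libraries, was that of chromosome 15 in replicate 11. In stained replicate 11, which had the most calls, 80 of the 645 lay on chromosome 15, a coverage of 3.09% against 0.891% over the rest of that library's genome. In the other 15 stained libraries chromosome 15 had 0.0773% to 0.966%. Along the chromosome, each block of 10 Mb between 10 and 70 Mb had 7 to 15 calls, 2.80% to 6% of its windows. Both blocks between 70 and 90 Mb had 1 call each, and the first 10 Mb had 2, or 0.80%. From 90 to 100 Mb there were 7 calls, 2.80%, and beyond 100 Mb 3 calls in 88 windows, 3.41%. The longest stretch on the chromosome was 2 windows, with 3 neighbouring pairs in all. The library's same-chromosome pair ratio was 1.25 with chromosome 15 and 1.19 without it, and stained replicate 6 had the higher ratio of 1.27.

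**Figure D4:**
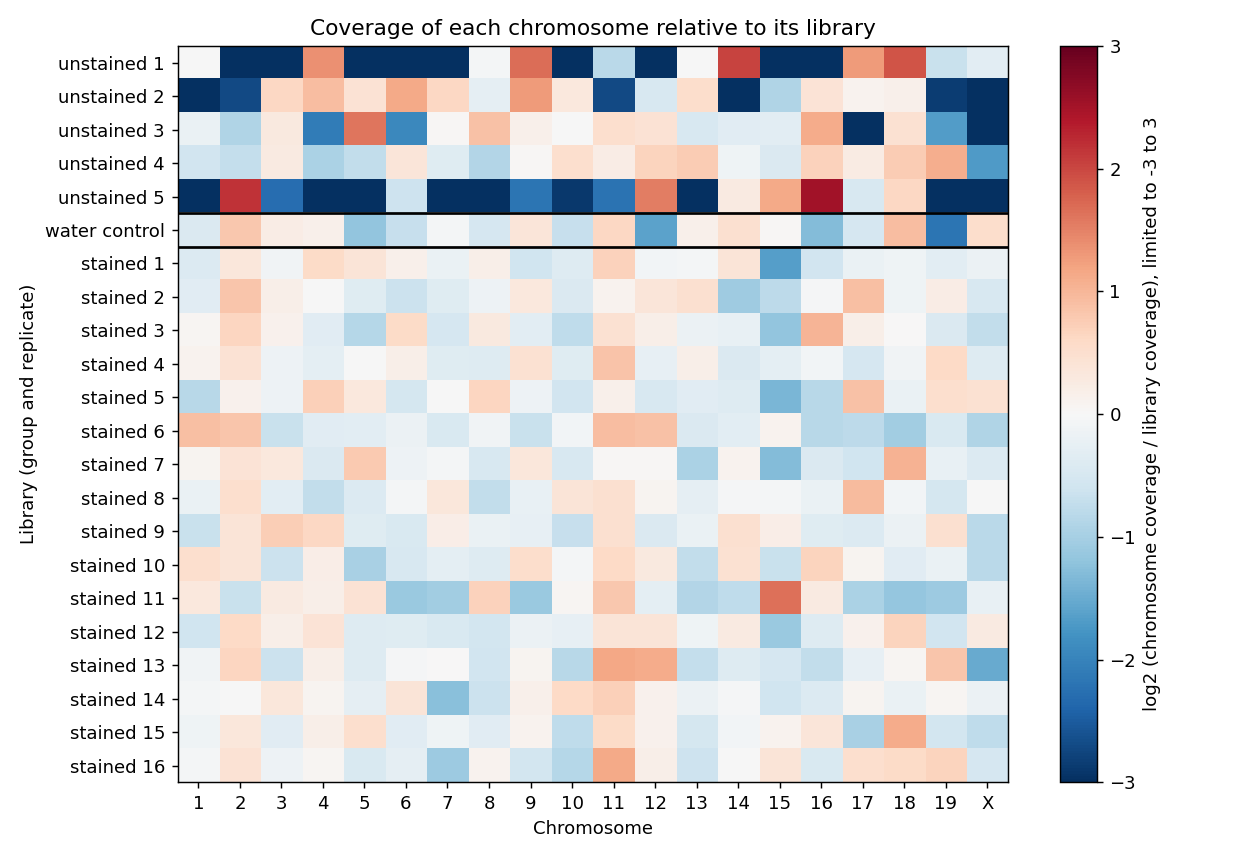
Coverage of each chromosome over the coverage of its library (log2, colours limited to -3 to 3), 1 row per library and 1 column per chromosome. Unstained rows hold strong reds and blues apart from replicate 4, stained rows are pale, and chromosome 15 of stained replicate 11 stands out at 3.16 times its library's coverage (1.66 on the log2 scale).

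The X chromosome was the more depleted without stain. Its coverage over that of the autosomes was 0.794, 0.0892, 0.0394, 0.295 and 0.0931 in the unstained libraries, and 0.337 to 1.42 in the stained libraries. In the water control it was 1.48. Means were 0.262 ± 0.313 (SD, n = 5) and 0.764 ± 0.275 (SD, n = 16), and the stained library was the higher in 70 of 80 pairs (exact permutation test, adjusted p = 0.00418). Counts behind these ratios were small with stain, 8 to 35 called X windows a library, against 17 to 217 without.

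None of the tests of position and composition passed the threshold. Windows within 10 Mb of the proximal, centromere-bearing end made up 7.58% of the genome, 6.36% ± 1.17 of stained calls (SD, n = 16) and 6.83% ± 1.84 of unstained calls (SD, n = 5, exact permutation test, adjusted p = 0.534). The distal 10 Mb held 7.25% ± 1.71 and 7.25% ± 1.45 of calls (exact permutation test, adjusted p = 0.995). Mean GC content of the called windows was 41.7% ± 0.476 stained and 42.2% ± 0.582 unstained, with 41.8% over all windows (exact permutation test, adjusted p = 0.123). Without unstained replicate 5 the GC difference was -0.645 points and passed. Windows that overlap a protein-coding gene were 53.1% of all windows, 64.7% ± 4.80 of stained calls (SD, n = 16), 59.1% ± 5.27 of unstained calls (SD, n = 5) and 69.7% of the calls of the water control. The groups' difference of 5.60 points missed the threshold (exact permutation test, adjusted p = 0.0520) with the stained library higher in 63 of 80 pairs, and that of 7.72 points without unstained replicate 4 passed it.

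Stained libraries shared part of their windows with each other and with the water control. At least 1 stained library called 5047 windows, 7.65% of the genome, and 4405 of these were called in a single library. A further 642 were called in at least 2, and 30 in at least 4. For a pair of stained libraries, the number of shared windows over that expected from both coverages had a median between 3.39 and 8.34, depending on the library. Against the stained libraries, the unstained ones had medians of 1.27 to 2.27 and the water control one of 7.65. This ratio cannot exceed 1 over the coverage of the fuller library of a pair. That limit is 7.30 for the fullest unstained library and 102 for the fullest stained one, so coverage and sharing cannot be told apart here. Of the stained calls 41.9% lay in windows that an unstained library also called, and such windows were 33.4% of the genome. The windows that the groups shared, 2002, were 39.7% of those called with stain and 9.09% of those called without.

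The windows called most often with stain included sites that were called widely. The window chr17:39960001-40000000 was called in all 16 stained and all 5 unstained libraries, in the water control and in 83 of the 165 4NP libraries of other experiments. Its annotated gene in GENCODE M1 is the pseudogene AY036118 (chr17:39985048-39985772, minus strand), beside which the RefSeq table (GRCm38) places Rn18s-rs5, a sequence related to 18S ribosomal RNA. The window at chr10:128120001-128160000 was called in 12 stained and 4 unstained libraries and in the water control, and holds Cdk2, a cell cycle kinase, Rab5b, Pmel and Dgka. A window at chr2:125960001-126000000 with Dtwd1 was also called in 12 and 4, in the water control, and in 7 of the 11 water controls of the series. The gene-free window chr17:4600001-4640000 had 12 stained and 3 unstained libraries and was not called in this water control. Next came chr2:98480001-98520000, with Gm10800 and Gm10801, in 10 and 5, chr11:108840001-108880000, with the non-coding Gm11668, in 9 and 2, chr16:35960001-36000000, with Parp9 and Kpna1, in 7 and 3, and chr9:123360001-123400000, with the mitochondrial leucyl-tRNA synthetase gene Lars2 and Limd1, in 6 and 4 and also in the water control. In Zeb2, chr2:44880001-44920000 was called in 6 stained libraries and 0 unstained ones, and chr6:3120001-3160000, without a gene, in 6 and 1.

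Among the windows called most often, chosen for their calls, was an array of satellite repeats and another window with a stretch like them. The following sequences are shown so that the repeat unit and that stretch can be compared. The first is a unit of 234 bases from chr9:3034251-3034484 (plus strand), the second the most similar stretch of the window chr2:98480001-98520000, at chr2:98506854-98507087 (minus strand), both from the NCBIM37 (mm9) assembly, 5′ to 3′.
Chromosome 9 unit: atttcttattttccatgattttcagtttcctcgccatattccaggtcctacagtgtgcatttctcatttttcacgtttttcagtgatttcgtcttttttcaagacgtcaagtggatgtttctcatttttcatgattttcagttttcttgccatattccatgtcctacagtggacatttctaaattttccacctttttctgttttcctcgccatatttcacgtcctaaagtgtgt
Chromosome 2 stretch: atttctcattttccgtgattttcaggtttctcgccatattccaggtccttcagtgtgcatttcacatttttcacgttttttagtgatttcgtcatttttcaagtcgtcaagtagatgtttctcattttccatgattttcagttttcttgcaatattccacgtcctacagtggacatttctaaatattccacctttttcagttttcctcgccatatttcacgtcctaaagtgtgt
They match at 219 of 234 bases (93.6%). In the chromosome 9 window the unit recurs: over its best 1000 bases, 94.5% of bases equal the base a period of 234 further on. That window holds 113 places at least 80% identical to the unit, against 1 in the chromosome 2 window. Places were counted without gaps and on 1 strand, so more diverged or shifted copies would be missed. This is the unit length of the mouse major satellite, which makes up the heterochromatin beside centromeres. The chromosome 9 window was called in 4 of the 5 unstained libraries, in 89 of the 165 4NP libraries of other experiments and in 0 of the 16 stained libraries. The chromosome 2 window was called in 5 of 5 unstained, 124 of 165 other and 10 of 16 stained libraries. A library's call does not say where in the 40 kb its reads lay.

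Windows that are usually called were over-represented in both groups relative to coverage. Of the 11 windows called in at least 30% of the 165 other 4NP libraries, the unstained libraries held 8, 8, 10, 4 and 4, the stained libraries 1 to 4 and the water control 2. This was 23.9% of such windows with stain, 61.8% without and 18.2% in the water control. Over the coverage of all windows it was 42.7 times with stain, 7.91 times without and 60.6 times in the water control. Such a ratio cannot exceed 1 over coverage, so its size cannot be compared between groups of unlike coverage. The stained value rested on 3 of the 11, those of AY036118, Cdk2 and Gm10800 above, with 38 of the 42 calls. The other 8 had 4 stained calls, 3.13%, and 5 of them had 0. The windows chr11:3040001-3080000 and chr11:3080001-3120000, over Sfi1, which encodes a centrin-binding protein, were each called in 3 unstained and 0 stained libraries. So was chr9:35080001-35120000, with Rpusd4. These were singled out after their values were seen. At the stained coverage a window is called on average in 0.0894 of the 16 libraries, so 0 is the usual count and says nothing of a window by itself. Among the windows most often called without stain, neighbouring windows in Dtna, a gene of the dystrophin complex (chr18:23680001-23720000 and chr18:23720001-23760000), were called in 4 unstained and 0 stained libraries. A window in Hdac9, a histone deacetylase gene (chr12:35040001-35080000), was called in 4 and 2, and a window in Mll3 (chr5:24840001-24880000) in 4 and 5.

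Among the gene lists, the Hox clusters stood highest in the stained libraries. These homeobox genes set identity along the body axis and lie in 4 compact clusters, here in 16 windows. Stained libraries called 19 of the 256 window places, 7.42%, which was 13.3 times their coverage of all windows. The calls came from 13 of the 16 libraries, 8 of them with 1 call, 4 with 2 and 1 with 3. By cluster there were 9 calls in Hoxa, 2 in Hoxb, 5 in Hoxc and 3 in Hoxd. A window with Hoxa3 to Hoxa6 (chr6:52120001-52160000) had calls in 5 stained libraries, and without it the share was 5.83%. By well column the share was 7.03% in column 3 and 7.81% in column 4. Unstained libraries had 5 calls there, 6.25% or 0.800 times their coverage (3.13% without replicate 2), and the 165 other 4NP libraries 6.67% or 1.35 times theirs. The water control had 0 calls, the usual count in 16 windows at its coverage of 0.300%. The 8 water controls of 35 to 314 calls had 1 call, 0.781% or 5.87 times their coverage. As shares, 7.42% with stain, 6.25% without and 6.67% in the other 4NP libraries lay close together. A ratio to coverage cannot exceed 1 over that coverage, so the ratios of groups of unlike coverage cannot be compared in size. The list was chosen with earlier results of these data known, and it was described and not tested.

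Other lists lay closer to the coverage of all windows. The pluripotency genes, which keep stem cells undifferentiated, covered 20 windows, of which 18% were called without stain (2.30 times the whole). With stain there were 5 calls in 3 of the 16 libraries, 1.56% (2.80 times), and 1% without replicate 4 or without replicate 9. Genes with a stained call were 4 of 14, the transcription factors Sox2, Klf5 and Esrrb and the RNA-binding Lin28a, and genes with an unstained call were 12 of 14. At least 1 library called 7.65% of all windows with stain and 33.4% without. Pou5f1 and Nanog, at the centre of the stem cell network, were each called in 1 unstained and 0 stained libraries. Esrrb was called whole, 5 windows of 5, in unstained replicate 3 and by single windows in 2 stained libraries. Long neuronal genes, used because each spans many windows, had a stained coverage of 0.621% (1.11 times) and an unstained coverage of 7.53% (0.964 times). They were caught as blocks without stain: Nrxn3, a synaptic adhesion gene, had 38 of 41 windows in replicate 3 and 15 in replicate 5, Magi2, a synaptic scaffold, 33 of 38 in replicate 3, and Dlg2 25 of 49 in replicate 2. With stain, Nrxn3 had 9 calls in 6 libraries, Magi2 5 calls in 5 and Dlg2 1 call. Dmd, the dystrophin gene on the X, had 0 unstained calls over 58 windows and 6 stained calls in 5 libraries. Olfactory receptor genes, in large clusters silent in stem cells, were called at 0.269% with stain, 0.481 times the whole, and at 6.53% without, 0.836 times. Genes named Rpl or Rps, mostly of ribosomal proteins, were called at 0.497% and 7.05%, or 0.890 and 0.901 times.

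**Figure D5:**
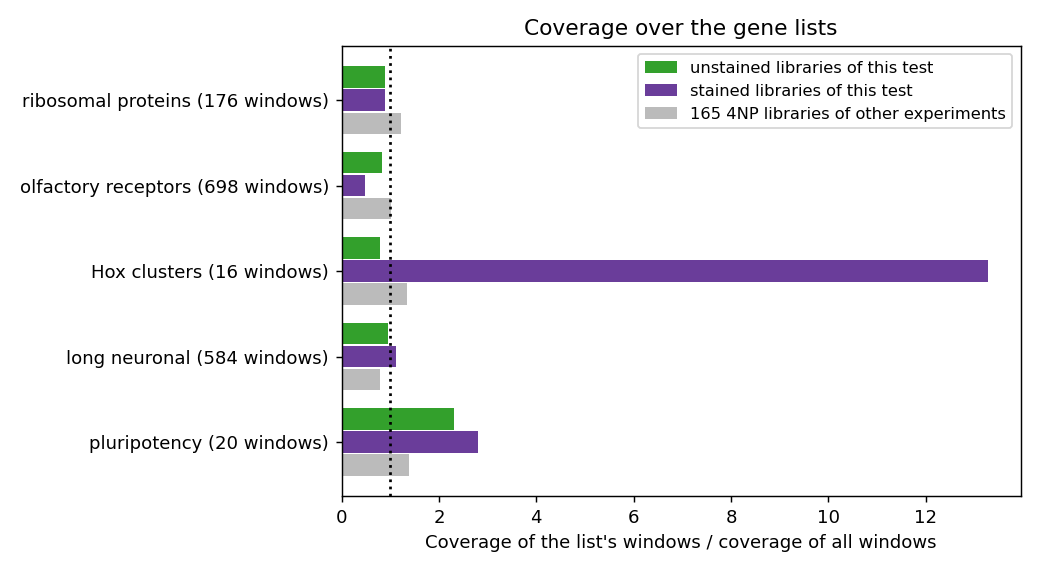
Coverage of each list's windows over the coverage of all windows, for the stained and unstained libraries of the test and for the 165 4NP libraries of other experiments; bars start at 0 and 1 is the dotted line. The stained bar of the Hox clusters reaches 13.3, and every other bar is below 3. A bar cannot exceed 1 over its group's coverage of all windows, so bar lengths cannot be compared between groups. Hox shares were 7.42% stained, 6.25% unstained and 6.67% in the other 4NP libraries.

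Stained libraries shared windows with the water control. The stained libraries had 4 to 17 windows in common with it, 2.58 to 14.6 times the number that both coverages give, and the unstained libraries 7 to 38, which was 0.848 to 2.17 times. Means of the ratio were 8.18 ± 3.52 (SD, n = 16) and 1.65 ± 0.515 (SD, n = 5), with no overlap (exact permutation test, adjusted p = 0.00158). The ratio cannot exceed 1 over a library's coverage, 7.30 in the fullest unstained library and 102 in the fullest stained one, so coverage and sharing cannot be told apart in this difference. Windows of the water control took up 2.29% of the stained calls, and 67 of its 198 windows were called in at least 1 stained library. After the values were seen, the same ratio was taken with the control libraries of other experiments and not tested. With the pooled calls of 8 water controls of 35 to 314 calls it was 3.08 to 8.15 in stained and 1.13 to 2.16 in unstained libraries. A further 2 water controls with 13860 and 14094 calls gave 0.901 to 1.23 and 0.974 to 1.18. With 2 libraries made from human genomic DNA, which called 57 windows of the mouse genome between them, the ratio was 4.58 to 34.9 in stained libraries, on 1 to 10 shared windows each, 1.67 to 4.30 in unstained libraries and 17.5 in the water control. The 8 water controls had 1 call in the Hox windows, 0.781% against 0.133% of all windows. The part of material from outside the profiles in the stained calls was not tested.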

How the data were processed

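Per the study's methods and the labels, the authors aligned reads to mm9 with Bowtie2 (version 2.1 in the submitters' processing notes), removed PCR duplicates with Samtools and had GAMtools call a 40 kb window once it held enough reads (a fixed threshold of 4). What was deposited are binary calls with no reads or depth, and the criteria of the quality control are not given in the sources used here. All 199 columns matched 1 sample each, and 0 columns were left unused. The ends of the last windows equalled the NCBIM37 chromosome lengths. Genes came from GENCODE M1 on that assembly. The symbol Tfcp2l1 was matched there as Tcfcp2l1 through RefSeq synonyms.

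Pair ratios divided called pairs at a distance by n(n-1)/N(N-1) times the window pairs at that distance, for n calls in N windows. Groups were compared by exact two-sided permutation tests of the difference in means with adjustment over 15 tests, and an adjusted p below 0.05 was a call. No count model was used. Wilson intervals (95%) cover counting error only. Windows were named by the number of libraries calling them (at most 10 a group), stretches by length. Repeats were sought as periods of 10 to 500 bases in blocks of 1000. Members, lists and tests were chosen with earlier results of these data known. Alternatives left out libraries or windows, or changed the statistic or scale. Measures were tested on simulated data. Python 3.11.15, numpy 2.4.6, pandas 2.3.3, scipy 1.17.1 and matplotlib 3.10.9 were used.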

Additional observations from a re-analysis of the deposited data

Results flagged for a closer look

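Among 17 checks for a library far from the rest of its group, 2 stood out, and chance alone gives about 1 in 20. Unstained replicate 4 had an isolated share of 85.4%, far above the other 4 unstained libraries. Unstained replicate 5 had 3.63% of its calls in the proximal 10 Mb, below the others. Chromosome Y lay outside the main windows: its 398 windows had 7 calls in 2 of the 5 unstained libraries, 6 calls in 5 of the 16 stained libraries and 0 in the water control.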

How the results depend on the processing

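No paired analysis was possible because replicate numbers were given in accession order and only name libraries. Coverage, the 400 kb pair ratio, isolated share, longest stretch, X to autosome ratio, the ratio with the water control and the coverage difference between well columns kept direction and call in every alternative run. The values below are stained minus unstained, or column 3 minus column 4. The 40 kb pair ratio was -3.50, and ranged from -4.28 to -2.10 with 1 library left out; it did not pass as medians (-0.624) or between neighbouring well columns (-2.72), and reversed to 0.393 with each chromosome's own coverage. The 4 Mb ratio did not pass as medians (-1.03) or with own coverage (-0.309), nor did the same-chromosome ratio between neighbouring columns (-0.873). The protein-coding share passed as medians (6.81) and ranged from 4.28 to 7.72 with 1 library left out, passing in 4 such cases: without unstained replicate 4 or stained replicate 11, 14 or 15. GC ranged from -0.645 to -0.241 and passed without unstained replicate 5. The distal share, 0.00537, changed sign as medians (-0.0439), between neighbouring columns (-0.591), with ends of 5 Mb (-0.512), without windows of water controls (-0.201), without windows called often elsewhere (-0.148) and with 1 library left out (-0.430 to 0.495). It passed in none of them. The 40 kb ratio between well columns, 1.20, passed without windows of water controls (2.43) and without stained replicate 8, in a range of 0.578 to 1.59. The ratio with the water control could not be computed without that control's windows. The cause was not tested in any case. The calls give no depth, and each stained library has too few neighbouring pairs for a firm ratio of its own.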

Other observations

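The mitochondrial window was called in 5 of 5 unstained libraries, 8 of 16 stained libraries and the water control. Blocks of 1 Mb with at least 1 call made up 22.01%, 42.8%, 46.96%, 25.97% and 20.99% of all such blocks in the unstained libraries and 5.74% to 19.2% in the stained libraries. Unstained replicate 4, with 1076 calls, thus touched more blocks than replicate 5 with 2726.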
